A study of Mus musculus with 6 samples.

Results

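This account follows 36 genes that mark B lymphocytes and the antibody-secreting plasma cells they become, in fat of mouse offspring at an age of 32 weeks. The genes are named markers of the lineage, listed with earlier results of these data known. The platform annotation gave 35 of the 36 a probe set with a single gene symbol, and where a gene had several, the brightest on average was used. These 35 are a small share of the 22180 genes tested. Cd72 had only a probe set shared with another gene and was left out. The 3 tested arrays came from offspring of dams fed a chromium restriction diet, and the 3 others from offspring of dams fed a control diet. The labels give adipose as the tissue and number the samples in each group, but they do not say that the samples came from separate animals or litters. All p-values therefore measure the spread between these samples only, which may be technical. The labels name no strain, sex, fat depot or chromium content of the diets.

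B cells recognise antigen through membrane immunoglobulin, which signals through the Cd79a and Cd79b chains. Naive and follicular B cells circulate through lymphoid follicles, where chemokine receptors and receptors for B cell survival factors hold them. After activation some become plasma cells, which lose many B cell surface proteins and turn to the synthesis, assembly and export of antibody. Adipose tissue has resident B cells, and fat in the abdomen can also hold lymphoid clusters and surround lymph nodes.

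Values are the log2 signals that the authors deposited. Array medians ran from 5.44 to 5.57 over all probe sets, and no background level accompanies the values, so whether a dim member was expressed was not determined. Of the 35 members, 7 had a mean below 5.44, as had 8694 of the 22180 genes. The adipocyte marker Fabp4, a fatty acid carrier, was at 13.53, 13.60 and 13.70 in the restriction group, against 13.62, 13.60 and 13.72 in the controls. All 6 samples therefore held fat tissue, but other adipocyte genes were less level. Of 11 measured, 0 had a higher mean in the restriction group (43.2% of all genes), and their median difference was -0.14. Plin1, a lipid droplet protein, was at 10.80, 11.53 and 11.24 in the restriction group, against 11.49, 11.56 and 11.86 in the controls. Adipoq was lower too, but 5 of its 6 values carry extra digits. The restriction arrays stood apart from the controls in their other tissue markers. Replicates 1 and 3 held liver transcripts: the mean of 7 liver genes was 11.33, 6.55 and 10.90 in restriction replicates 1, 2 and 3, against 6.56, 6.70 and 6.94 in control replicates 1, 2 and 3. Replicate 2 held transcripts of some genes of the intestinal epithelium. The brush border enzyme gene Sis was at 7.09 there, at 4.62 and 4.55 in restriction replicates 1 and 3, and at 4.53 to 4.60 in the controls. Only 9 of 18 such genes were highest in replicate 2 (12.9% of all genes). Lgals4, for example, was highest in replicate 3, at 6.49, 6.49 and 6.90 in restriction replicates 1, 2 and 3. Fabp2, a gut fatty acid carrier, was instead high in all 3 restriction arrays, at 7.30, 7.15 and 7.31, against 5.27, 5.50 and 5.04 in the controls (limma adjusted p = 0.00358). Its own values carry no extra digits. Its call was still lost when 64 probe sets with such digits were left out, where 0 genes were called. Values of the members are therefore given by array.

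Most B cell genes were highest in 1 sample, chromium restriction replicate 2. In that array 25 of 25 measured naive and follicular B cell genes lay above every control, as did 3 of 7 plasma cell genes and 18.8% of all genes; the difference between the lists was not tested. In the comparison of 3 arrays with 3, limma called 0 of 35 members at an adjusted p of 0.05, where 0.194% of all genes were called, and the lowest adjusted p of a member was 0.805 (Ighm). That background of 43 called genes became 0 when 64 probe sets whose values carry extra digits were left out; 0 of them belong to a member. At an unadjusted p under 0.05, 1 of 35 members passed, Ighm, against 5.95% of all genes. For most members the other restriction arrays did not share the rise: without replicate 2, 11 of 35 had a difference above 0, against 44.3% of all genes. Ighm was an exception, with a difference of 0.86, and 4 of 7 plasma cell genes were still above 0.

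The regulatory sequence just around the start sites is shown for the 4 members that stood highest in replicate 2 over the control mean among those with a promoter window in the RefSeq table of GRCm38.p6. Each window runs from 250 bases before to 50 bases after the annotated start, 5′ to 3′ on the gene's own strand. Jchain lies at chr5:88527848-88528147 on the minus strand, Btla at chr16:45224087-45224386 on the plus strand, Ltb at chr17:35194257-35194556 on the plus strand and Bank1 at chr3:136326017-136326316 on the minus strand. Capitals mark matches to 4 short motifs of B cell factors that a search of both strands found.
Jchain: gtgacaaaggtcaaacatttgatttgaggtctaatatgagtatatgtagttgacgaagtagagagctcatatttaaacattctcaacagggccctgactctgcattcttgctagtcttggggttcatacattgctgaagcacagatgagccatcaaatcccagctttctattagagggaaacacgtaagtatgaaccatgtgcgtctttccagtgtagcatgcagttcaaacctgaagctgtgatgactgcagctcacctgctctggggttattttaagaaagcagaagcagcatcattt
Btla: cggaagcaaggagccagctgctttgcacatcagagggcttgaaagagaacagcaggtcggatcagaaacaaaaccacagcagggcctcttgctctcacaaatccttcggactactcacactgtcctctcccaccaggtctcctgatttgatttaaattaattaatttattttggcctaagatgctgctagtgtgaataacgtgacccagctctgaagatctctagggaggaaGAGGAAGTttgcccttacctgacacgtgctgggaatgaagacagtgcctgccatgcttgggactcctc
Ltb: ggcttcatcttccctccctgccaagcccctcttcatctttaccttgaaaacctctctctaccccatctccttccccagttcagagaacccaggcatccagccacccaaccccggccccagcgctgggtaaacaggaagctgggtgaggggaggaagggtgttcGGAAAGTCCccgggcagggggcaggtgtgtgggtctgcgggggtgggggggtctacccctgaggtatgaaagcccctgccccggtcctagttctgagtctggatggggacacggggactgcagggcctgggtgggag
Bank1: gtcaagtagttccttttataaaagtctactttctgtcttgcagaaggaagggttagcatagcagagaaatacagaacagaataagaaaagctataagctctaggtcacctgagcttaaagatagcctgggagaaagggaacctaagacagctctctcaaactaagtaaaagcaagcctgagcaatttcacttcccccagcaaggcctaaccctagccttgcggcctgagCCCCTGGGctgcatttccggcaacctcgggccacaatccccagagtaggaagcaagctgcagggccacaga

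The motifs searched were the octamer ATGCAAAT bound by Oct factors, CCCNNGGG of early B cell factor, GAGGAAGT of PU.1 and SpiB, and GGNNTTTCC of NF-kappaB. The Btla window held the PU.1 letters at bases 233 to 240, the Ltb window the NF-kappaB letters, read on the other strand, at bases 164 to 172, the Bank1 window the early B cell factor letters at bases 230 to 237, and the Jchain window none of the 4. No 2 matches overlapped in these windows. RefSeq had windows for 30 of the 36 genes, 36 windows in all; Ighm, Ms4a1, Cd79b, Blk, Cxcr5 and Mzb1 had none in the table. The octamer stood in 3 of these 36 windows (Blnk, Ccr6 and Vpreb3), against 1.74% of all 32851 windows. The early B cell factor letters stood in 4 (Bank1, Cd22, Sdc1 and Spib), against 13.7%, the PU.1 letters in 3 (Btla, Cd37 and Cd72), against 3.20%, and the NF-kappaB letters in 3 (Bach2, Ltb and Tnfrsf13b), against 5.82%. A match describes letters in the window and does not show binding.

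**Figure D1:**
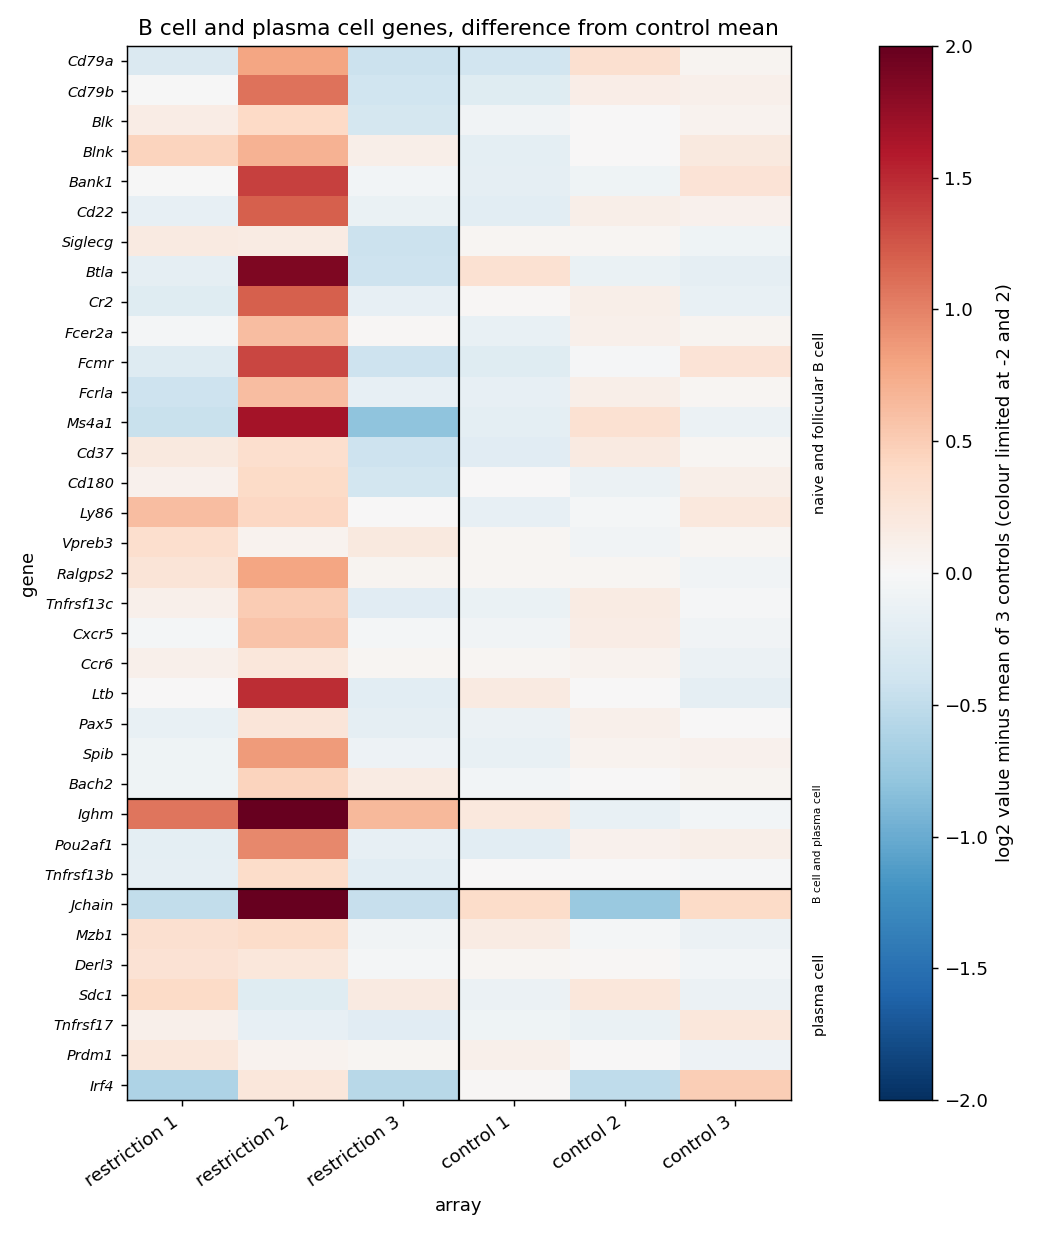
Colour gives the log2 value of each of 35 genes on each array minus the mean of the 3 controls, with chromium restriction arrays on the left, control arrays on the right and gene classes separated by lines. The column of restriction replicate 2 is the highest of the 6 arrays for 27 of 35 genes, and the exceptions lie mostly among plasma cell genes.

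The antigen receptor and its adaptors come first. Cd79a, a signalling chain of the receptor, was at 5.64, 6.72 and 5.50 in restriction replicates 1, 2 and 3, against 5.54, 6.25 and 5.98 in control replicates 1, 2 and 3. Replicate 2 was the highest array and replicate 3 the lowest of the 6, so the groups overlapped and their means differed by 0.030 ± 0.36 (log2, SE, n = 3 per group), or by -0.35 without replicate 2. Its partner Cd79b was at 6.41, 7.51 and 6.03 in the restriction group, against 6.18, 6.56 and 6.53 in the controls, again with both the highest and the lowest value in the restriction group. Bank1, a scaffold of B cell signalling, was at 7.08, 8.46 and 7.04 in the restriction group, against 6.91, 7.00 and 7.36 in the controls. In replicate 2 it stood 1.37 log2 units above the control mean, while replicates 1 and 3 lay among the controls. The Src-family kinase Blk was at 5.80, 6.05 and 5.31 in the restriction group, against 5.58, 5.67 and 5.72 in the controls, with replicate 2 highest and replicate 3 lowest. The adaptor Blnk, which is also made by some myeloid cells, was at 6.81, 7.06 and 6.49 in the restriction group, against 6.17, 6.37 and 6.57 in the controls. It had the smallest p of the naive and follicular genes, with a difference of 0.41 ± 0.17 (log2, SE, n = 3 per group; limma adjusted p = 0.817). All 5 genes of this set were highest in replicate 2.

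The 7 measured coreceptors and inhibitory receptors had a median excess of 1.19 log2 units over the control mean in replicate 2. Btla, an inhibitory receptor of B and T cells, was at 5.69, 7.73 and 5.46 in the restriction group, against 6.18, 5.74 and 5.69 in the controls. Replicate 2 exceeded the next highest array by 1.55 log2 units, and replicates 1 and 3 lay below every control, replicate 1 by less than the digits shown. The group difference of 0.42 became -0.29 without replicate 2. Fcmr, the receptor for immunoglobulin M, was at 5.96, 7.55 and 5.81 in the restriction group, against 5.98, 6.19 and 6.49 in the controls. Cr2, the complement receptor of mature B cells and follicular dendritic cells, was at 4.82, 6.27 and 4.90 in the restriction group, against 5.10, 5.19 and 4.92 in the controls. For both genes replicates 1 and 3 lay below every control. Cd22, a sialic acid-binding brake on receptor signalling, was at 5.56, 6.92 and 5.60 in the restriction group, against 5.51, 5.85 and 5.82 in the controls. Fcer2a, the low-affinity receptor for immunoglobulin E on follicular B cells, was at 5.25, 5.90 and 5.32 in the restriction group, against 5.14, 5.39 and 5.34 in the controls. Fcrla, an Fc receptor-like protein of B cells, was at 5.05, 6.07 and 5.29 in the restriction group, against 5.30, 5.57 and 5.50 in the controls. In replicate 2, Cd22 stood 1.19 above the control mean, and Fcer2a and Fcrla each stood 0.61 above it. Siglecg, a further sialic acid-binding inhibitor, broke the pattern: it was at 5.99, 5.97 and 5.37 in the restriction group, against 5.85, 5.85 and 5.72 in the controls, with the highest value in replicate 1.

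**Figure D2:**
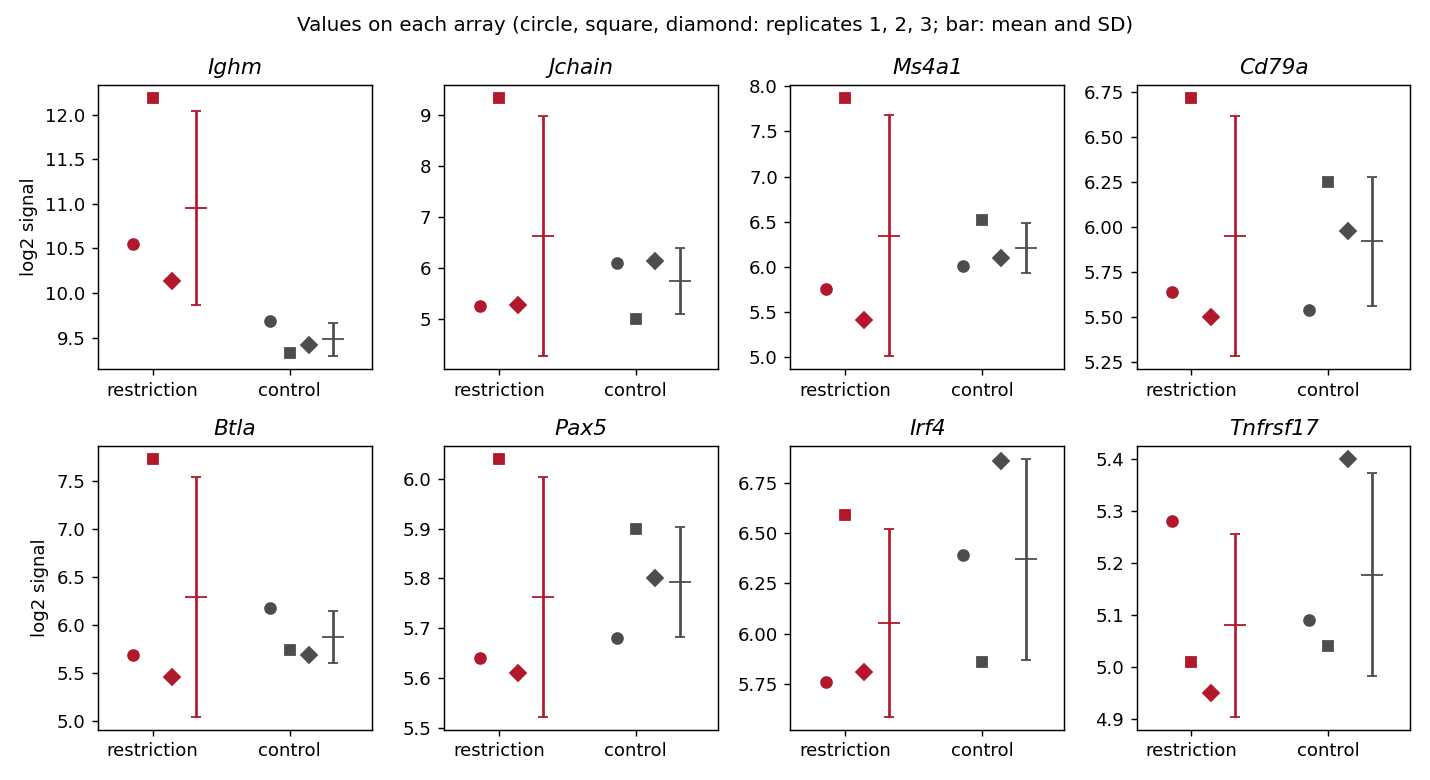
Log2 signal (vertical axes, which differ between panels) of 8 genes on every array, with restriction arrays at the left and controls at the right of each panel; bars give the mean and SD of 3 arrays. The square of restriction replicate 2 is the highest point for Ighm, Jchain, Ms4a1, Cd79a, Btla and Pax5, but not for Irf4 or Tnfrsf17.

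Among other membrane proteins, Ms4a1, which encodes the B cell antigen CD20, showed the same split most plainly. It was at 5.76, 7.87 and 5.41 in restriction replicates 1, 2 and 3, against 6.01, 6.52 and 6.10 in control replicates 1, 2 and 3. Replicate 2 lay 1.35 log2 units above the next array, and replicates 1 and 3 were the lowest of the 6. The group means, 6.35 ± 1.33 in the restriction group and 6.21 ± 0.27 in the controls (SD, n = 3), differed by less than the spread within the restriction group. Without replicate 2 the difference was -0.62 (limma unadjusted p = 0.0187, adjusted p = 0.283). Ralgps2, an exchange factor for Ral GTPases, was at 6.32, 6.86 and 6.12 in the restriction group, against 6.10, 6.10 and 5.99 in the controls, so that the groups did not overlap. Vpreb3, a partner of the immunoglobulin heavy chain during B cell development, was at 5.22, 4.95 and 5.08 in the restriction group, against 4.92, 4.81 and 4.92 in the controls. Both groups were dim and also did not overlap, and here replicate 2 was the lowest restriction array. Ly86, the MD-1 partner of Cd180, is also made by macrophages and was highest in replicate 1, at 8.96, 8.76 and 8.36 in the restriction group, against 8.19, 8.30 and 8.55 in the controls. Cd180, a Toll-like receptor homologue, was at 6.13, 6.43 and 5.68 in the restriction group, against 6.05, 5.92 and 6.16 in the controls. Cd37, a tetraspanin of leukocytes, was at 7.41, 7.55 and 6.80 in the restriction group, against 6.99, 7.39 and 7.26 in the controls. Both were highest in replicate 2 and below every control in replicate 3.

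Receptors and ligands that place B cells in follicles followed replicate 2 as well. Ltb, the lymphotoxin chain that lymphocytes use to organise lymphoid tissue, was at 6.35, 7.83 and 6.13 in the restriction group, against 6.53, 6.35 and 6.16 in the controls. Replicate 2 was 1.30 log2 units above the next array, and replicates 1 and 3 were at control level or just under it, so that the difference of 0.42 became -0.11 without replicate 2. Cxcr5, the receptor that draws B cells into follicles, was at 5.79, 6.41 and 5.79 in the restriction group, against 5.76, 5.98 and 5.77 in the controls. Tnfrsf13c, the receptor for the survival factor BAFF, was at 6.87, 7.27 and 6.55 in the restriction group, against 6.63, 6.93 and 6.75 in the controls. For both genes replicate 2 was the only restriction array above every control. Ccr6, a chemokine receptor of B cells and some T cells, was at 4.98, 5.10 and 4.92 in the restriction group, against 4.92, 4.95 and 4.76 in the controls, with a group difference of 0.13 ± 0.088 (log2, SE, n = 3 per group; limma adjusted p = 0.926).

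The 3 transcription factors of B cell identity had a median excess of 0.44 in replicate 2, beside 0.40 for the 6 membrane proteins above. Pax5, which holds B cells to their lineage, was at 5.64, 6.04 and 5.61 in the restriction group, against 5.68, 5.90 and 5.80 in the controls. Spib, an ETS factor, was at 4.99, 5.93 and 4.97 in the restriction group, against 4.92, 5.14 and 5.16 in the controls. Bach2, a repressor of the plasma cell programme, was at 5.73, 6.25 and 5.98 in the restriction group, against 5.76, 5.81 and 5.86 in the controls. All 3 were highest in replicate 2, by 0.25, 0.86 and 0.44 over the control mean.

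Over the 25 naive and follicular genes the median difference from the control mean was -0.019, 0.61 and -0.17 in restriction replicates 1, 2 and 3, while over all genes it was -0.014, -0.021 and -0.026. Replicate 2 was above every control for 25 of 25, against 18.8% of all genes, and was the highest of the 6 arrays for 22 of 25, against 12.9%. It stood more than 1 log2 unit above the control mean for 8 of 25, against 0.518% of all genes, which is 115 genes on the whole array. Replicate 3 lay below every control for 14 of 25 (29.1% of all genes) and replicate 1 for 7 of 25 (32.3% of all genes). The median SD within the restriction group was 0.39, against 0.14 in the controls, where over all genes the medians were 0.14 and 0.13. The list's median group difference was 0.20, against -0.018 over all genes, and 23 of 25 were above 0, against 43.2% of all genes. Without replicate 2 that median was -0.11 and 6 of 25 were above 0, and with array weights it was 0.083 and 14 of 25 were above 0. In bulk tissue, more cells of a type and more RNA per cell cannot be told apart.

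Ighm, the heavy chain of immunoglobulin M, is made by both naive B cells and plasma cells, and it was the member with the smallest p. It was at 10.55, 12.19 and 10.13 in restriction replicates 1, 2 and 3, against 9.69, 9.33 and 9.42 in control replicates 1, 2 and 3. All 3 restriction arrays were above all 3 controls. The means were 10.95 ± 1.09 in the restriction group and 9.48 ± 0.19 in the controls (SD, n = 3), a difference of 1.47 ± 0.51 (SE, 95% interval 0.23 to 2.72), or 2.78-fold, with a limma unadjusted p of 0.0271 and an adjusted p of 0.805. Without replicate 2 it was 0.86 (unadjusted p = 0.0028, adjusted p = 0.0999). The 3 restriction arrays lay above the 3 controls for 3 of 35 members (Ighm, Ralgps2 and Vpreb3), against 3.53% of all genes. The lowest restriction and highest control values were 10.13 and 9.69 for Ighm, but 6.12 and 6.10 for Ralgps2 and 4.95 and 4.92 for Vpreb3. The annotation gave Ighm 6 further probe sets of its own, and these differed from the first. The next brightest was at 9.72, 12.32 and 9.34 in the restriction group, against 9.25, 9.41 and 10.04 in the controls, so replicates 1 and 3 overlapped with the controls. In the one after it, at 6.08, 10.58 and 5.86 in the restriction group, against 6.70, 6.42 and 8.13 in the controls, replicates 1 and 3 lay below every control. With the mean of all 7 probe sets the difference was 0.78 (limma adjusted p = 0.978). In all 7 probe sets replicate 2 was the highest array, by 0.70 to 3.48 log2 units over the next. Probe sets at the heavy chain locus may respond to more than 1 gene segment.

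Pou2af1, the coactivator of octamer-bound immunoglobulin promoters, is used at both stages. It was at 5.31, 6.46 and 5.35 in the restriction group, against 5.30, 5.59 and 5.63 in the controls, with replicate 2 highest and replicates 1 and 3 at the low end of the controls. Tnfrsf13b, the receptor TACI, was at 4.99, 5.53 and 4.95 in the restriction group, against 5.17, 5.18 and 5.15 in the controls. Its controls lay within a SD of 0.02, and replicates 1 and 3 were below all of them.

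Plasma cell genes did not move as a block. Jchain, which joins antibody units into polymers, had the largest excess of any member: it was at 5.25, 9.34 and 5.28 in restriction replicates 1, 2 and 3, against 6.10, 4.99 and 6.13 in control replicates 1, 2 and 3. Replicate 2 was 3.21 log2 units above every other array, while replicates 1 and 3 lay within the range of the controls. The means, 6.62 ± 2.35 in the restriction group and 5.74 ± 0.65 in the controls (SD, n = 3), differed by 0.88 ± 1.13 (SE; limma adjusted p = 0.986), and by -0.48 without replicate 2. Mzb1, a chaperone of antibody assembly in the endoplasmic reticulum, was at 5.84, 5.88 and 5.45 in the restriction group, against 5.68, 5.48 and 5.40 in the controls. Derl3, part of the machinery that clears misfolded protein, was at 6.08, 6.01 and 5.74 in the restriction group, against 5.82, 5.80 and 5.73 in the controls. For both genes replicates 1 and 2 were slightly above the controls, and the group differences of 0.20 and 0.16 did not pass the test.

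The other 4 plasma cell genes, of surface proteins and transcription factors, were not above every control in replicate 2. Tnfrsf17, the receptor BCMA of long-lived plasma cells, was at 5.28, 5.01 and 4.95 in the restriction group, against 5.09, 5.04 and 5.40 in the controls. Sdc1, the proteoglycan CD138 that plasma cells and epithelia carry, was at 6.23, 5.60 and 6.03 in the restriction group, against 5.73, 6.08 and 5.73 in the controls. In both genes replicate 2 was below every control. A dimmer probe set of Sdc1 was nearly level, at 5.73, 5.72 and 5.77 in the restriction group, against 5.62, 5.73 and 5.50 in the controls. Prdm1, the Blimp-1 factor that drives plasma cell fate, was at 6.24, 6.08 and 6.06 in the restriction group, against 6.11, 6.02 and 5.91 in the controls. Irf4, needed for plasma cells and also present in adipocytes and macrophages, was at 5.76, 6.59 and 5.81 in the restriction group, against 6.39, 5.86 and 6.86 in the controls. Its highest value was in control replicate 3, and the group difference of -0.32 ± 0.32 (log2, SE, n = 3 per group) was no larger than its error. Over the 7 plasma cell genes replicate 2 was the highest array for 2 (12.9% of all genes) and above every control for 3 (18.8%). Replicate 1 was the highest for 3, against 4744 of the 22180 genes, and above every control for 4, against 5955 of the 22180. The median difference from the control mean was 0.23, 0.22 and -0.072 in restriction replicates 1, 2 and 3, and the median group difference was 0.12, against -0.018 over all genes.

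**Figure D3:**
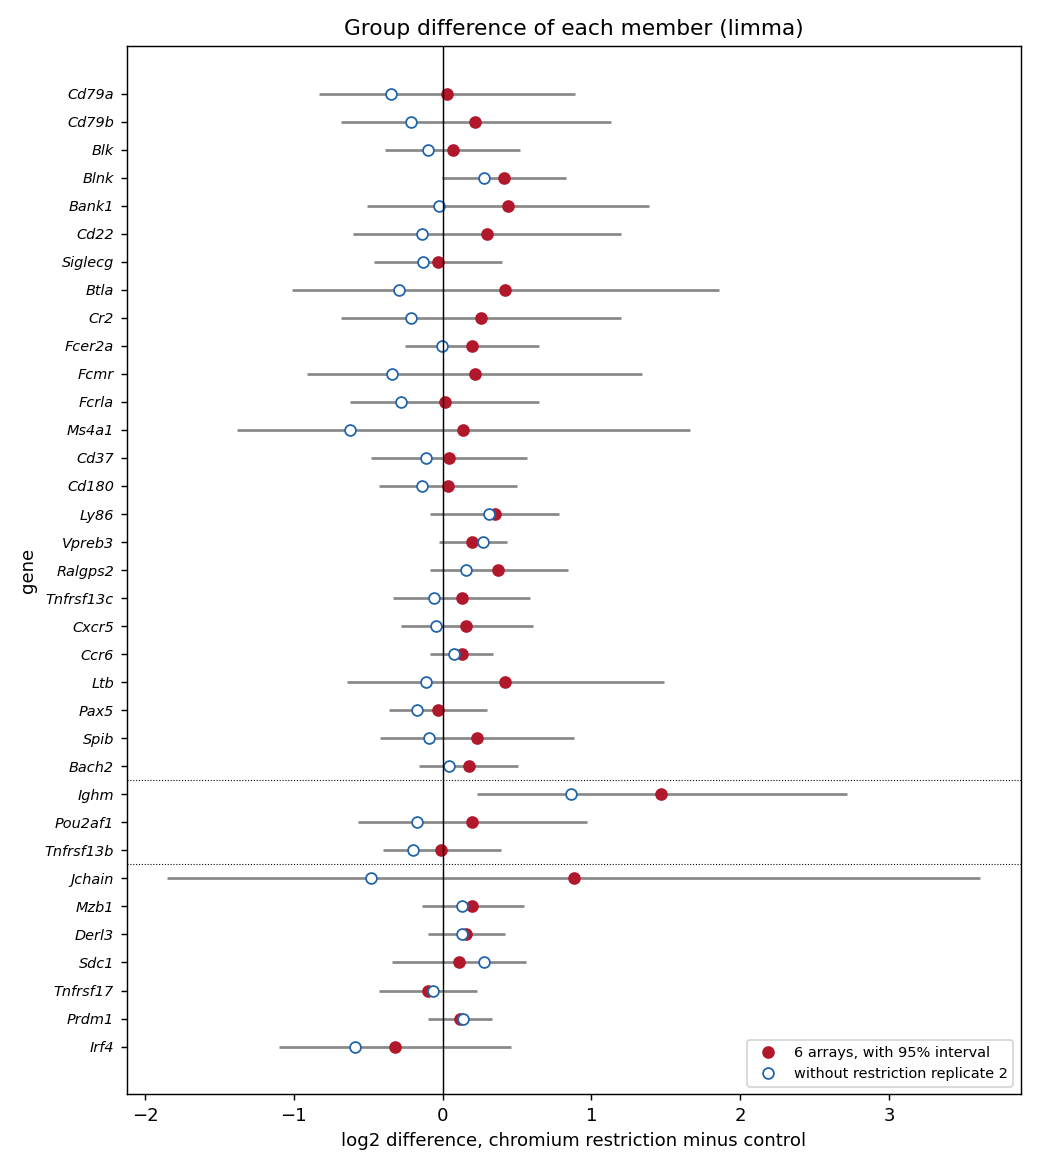
Filled points give the log2 difference, chromium restriction minus control, of each gene with its 95% interval from limma on 6 arrays; open points give the difference without restriction replicate 2. Intervals cross 0 for all genes but Ighm, and most open points of the naive and follicular genes lie left of 0.

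Other genes of the B cell pathway were examined from lists. Over all genes 43.2% had a difference above 0, 12.9% were highest in replicate 2 and 5.95% had an unadjusted p under 0.05, with a median difference of -0.018. Of 17 measured genes of receptor signalling 16 had a difference above 0, with a median of 0.25, and 13 were highest in replicate 2; 0 passed the adjusted test in limma and 1 passed at an unadjusted p under 0.05, a share near that of all genes. That gene was Syk, the kinase that binds the receptor chains, at 7.13, 7.16 and 6.80 in the restriction group, against 6.61, 6.80 and 6.68 in the controls. Syk is also used by myeloid cells. Of 16 further B cell genes 12 had a difference above 0, with a median of 0.15, and 10 were highest in replicate 2, with 0 past the adjusted test in limma and 3 at an unadjusted p under 0.05: Cd83, Ciita and Bcl6, all higher in the restriction group and all also used by dendritic cells or other cells. Of 17 genes of antibody secretion, which most secretory cells express, 11 had a difference above 0, with a median of 0.11, 6 were highest in replicate 2, 0 passed the adjusted test in limma and 2 (Creld2 and Manf, both higher) had an unadjusted p under 0.05. Xbp1, the factor that expands the secretory apparatus of plasma cells, was at 8.94, 9.25 and 9.03 in the restriction group, against 9.23, 9.27 and 9.69 in the controls, and was not raised in replicate 2.

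Variable segments of the antibody genes, a set chosen after values were seen, varied in the same array. Of 17 segments with a probe set of their own, 13 were highest in replicate 2 (12.9% of all genes) and 11 stood more than 1 log2 unit above the control mean there (0.518% of all genes), while the median group difference was 0.29. The kappa segment Igkv5-43 was at 8.63, 11.97 and 8.17 in the restriction group, against 9.86, 8.85 and 9.31 in the controls. Single segments could also be high in a control: Igkv8-30 was at 4.74, 6.91 and 4.63 in the restriction group, against 4.59, 4.79 and 7.79 in the controls. The heavy chain constant gene Ighg3 was likewise at 5.17, 9.56 and 6.38 in the restriction group, against 5.22, 4.97 and 8.17 in the controls. Ighg3 belongs to a list of 5 measured immunoglobulin genes. Of these, 2 were highest in replicate 2 (12.9% of all genes) and 3 in replicate 1 (4744 of the 22180 genes). Iglv1, in this list and among the 17 segments, was at 7.79, 7.66 and 4.94 in the restriction group, against 7.03, 5.68 and 6.40 in the controls. Of the 17 segments, 8 had a mean below 5.44, the lowest array median. Segments of a family can be alike in sequence, which was not compared here, so signals of single segments are uncertain. None of the 17 segments passed the adjusted test in limma, and 0 had an unadjusted p under 0.05.

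Signals that draw B cells were read from a list of 19 measured ligands and homing genes, of which 8 had a difference above 0 (43.2% of all genes) and 4 were highest in replicate 2 (12.9%), with a median difference of -0.035. Cxcl13, the ligand of Cxcr5, was at 7.28, 10.61 and 7.91 in restriction replicates 1, 2 and 3, against 8.60, 9.87 and 9.01 in control replicates 1, 2 and 3. Restriction replicate 2 was first and control replicate 2 second, as for Ms4a1. Control replicate 2 was the highest control for 13 of 25 naive and follicular genes, and for 7725 of the 22180 genes. For Bank1, Btla, Ltb and Jchain another control was the highest. A link between Cxcl13 and the B cell genes was not tested. Tnfsf13b, the survival factor BAFF, was at 6.71, 7.48 and 6.87 in the restriction group, against 7.06, 7.18 and 7.48 in the controls. Il6, which supports plasma cells, was called (limma adjusted p = 0.00358), but 3 of its 6 values carry more digits than the rest of the deposited table, so its value is not used here. Pigr, which carries polymeric antibody across epithelia and is strong in liver and gut, was at 9.11, 6.36 and 8.73 in the restriction group, against 6.21, 5.88 and 5.67 in the controls, and was high in the 2 arrays with liver transcripts.

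Markers of other cells moved with the B cell genes in replicate 2. Of 19 measured T and NK cell genes, 16 were highest there (12.9% of all genes) and 6 stood more than 1 log2 unit above the control mean (0.518%), with a median group difference of 0.26; their mean level was 5.69, 6.45 and 5.65 in restriction replicates 1, 2 and 3, against 5.75, 5.67 and 5.62 in control replicates 1, 2 and 3. The T cell receptor chain gene Cd3e was at 5.92, 7.76 and 6.03 in the restriction group, against 6.61, 6.19 and 5.97 in the controls. Of 18 genes of the intestinal epithelium 9 were highest in replicate 2 (12.9% of all genes), and 7, Fabp2 among them, stood more than 1 log2 unit above the control mean there (0.518%), with a median group difference of 0.23; their mean level was 5.34, 6.01 and 5.27 in the restriction group, against 5.13, 5.25 and 5.10 in the controls. Glycam1, a mucin of the high endothelial venules of lymph nodes and of mammary epithelium, was at 4.93, 8.03 and 4.92 in the restriction group, against 5.12, 5.11 and 4.98 in the controls. Madcam1, the addressin of gut venules, was at 5.49, 5.36 and 5.55 in the restriction group, against 5.55, 5.48 and 5.51 in the controls, so that it was not raised in replicate 2. The 7 measured genes of lymphoid stroma, which include Glycam1 and Madcam1, had a median excess of 0.13 over the control mean there. Replicate 2 was the highest array for 4 of them (12.9% of all genes). Of 16 macrophage genes 1 was highest in replicate 2 (12.9% of all genes) and 12 were highest in replicate 1 (4744 of the 22180 genes), with a median group difference of 0.14. The part of these other tissues and cells in the B cell values was not tested.

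**Figure D4:**
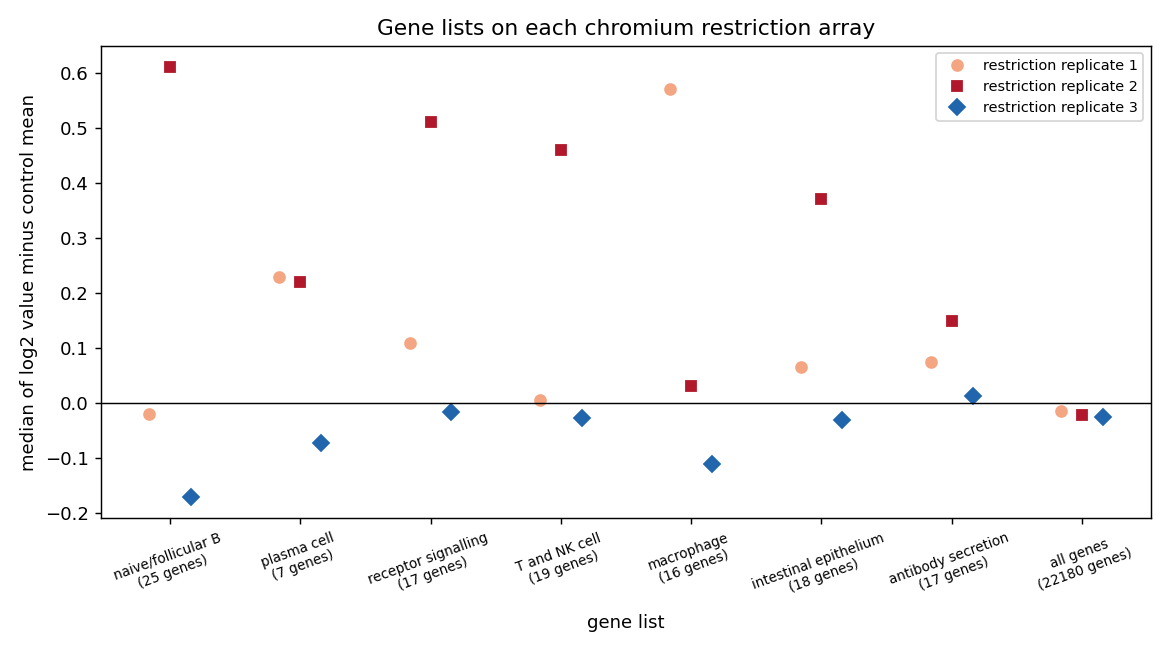
Each point is the median, over the genes of a list, of the log2 value on a restriction array minus the mean of the 3 controls, with circles, squares and diamonds for replicates 1, 2 and 3. Among the 8 lists plotted, the squares of replicate 2 are highest for naive and follicular B cell genes (0.61), receptor signalling (0.51) and T and NK genes (0.46), while macrophage genes are highest in replicate 1 (0.57).

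With replicate 2 alone set against the 3 controls, which assumes that it varies as the controls do, 23 of 35 members had an unadjusted p under 0.05, against 4.18% of all genes, and 0 passed the adjusted test in limma, with a lowest adjusted p of 0.057. That fit has 1 restriction array, so the spread within the restriction group cannot be estimated from it. Most members were already seen to be highest in this array, and they were listed with earlier results known. The count of small p-values therefore restates that pattern and does not test a difference between the diets. With replicates 1 and 3 against the controls, 3 of 35 had an unadjusted p under 0.05, against 11.5% of all genes: Ighm and Vpreb3 higher, and Ms4a1 lower. The controls also differed among themselves in B cell genes. Control replicate 1 was the lowest control for 17 of 25 naive and follicular genes, among them all 5 of the receptor and its adaptors, and control replicate 2 the highest for 13 of 25. Over all genes control replicate 1 was lowest for 7584 of 22180 and control replicate 2 highest for 7725. A low control replicate 1 was not particular to B cell genes. It was the lowest control for 15 of 16 macrophage genes and 12 of 17 antibody secretion genes. For T and NK cell genes it was the lowest control for 5 of 19, and for plasma cell genes for 1 of 7. For Jchain control replicate 2 was the lowest control, at 4.99.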

How the data were processed

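Per the labels, the assay was a biotin array of total RNA from mouse adipose tissue, with a single sample on each array. The deposited log2 values of 33793 probe sets on 6 arrays were used as given; the log base was judged from the range of 3.49 to 14.86, and the authors' summarisation and normalization were not given in the sources used here. Arrays correlated with each other at 0.95 to 0.99 and none was a copy of another. A platform annotation named 23521 probe sets with 1 symbol (1814 had several, 8458 none), giving 22180 genes, of which 21994 were found in the RefSeq table of GRCm38.p6. Differences, chromium restriction minus control, were fitted on all genes in R 4.3.3 by limma 3.58.1 (lmFit, then eBayes), two-sided, with Benjamini-Hochberg adjustment, and the procedure was tested on simulated data. The 36 members, the lists, the tests and the 15 alternatives were chosen with earlier results of these data known. Every measured member is named, and of each of 11 further lists up to 4 genes with the smallest p and fixed cell markers could be; further genes were chosen after their values were seen. Lists are described by counts and medians, set beside the values over all genes. Same-numbered arrays of the groups did not deviate together (correlations of -0.12, -0.09 and 0.08), so the numbers were not taken as pairs. In 64 probe sets some values were written with extra digits; 0 members lay among them. Precision is limited by the number of arrays, 3 per group.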

Additional observations from a re-analysis of the deposited data

Results flagged for a closer look

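Probe sets whose annotation lists a member beside other genes took no part in the comparisons, and on 5 of them a restriction array lay above every control. The only probe set for Cd72, an inhibitory receptor of B cells, was shared with Tesk1; restriction replicates 1, 2 and 3 gave 6.14, 7.57 and 6.13, against 6.07, 6.48 and 6.18 in control replicates 1, 2 and 3, so that its highest restriction array exceeded the highest control by 1.09 log2 units. The 3 probe sets shared between Ighm and variable segments were highest in restriction replicate 2 too, by 1.83, 3.42 and 2.59 log2 units over the highest control. The first of these was at 7.81, 11.54 and 6.99 in the restriction group, against 9.70, 8.24 and 8.06 in the controls, with restriction replicates 1 and 3 below every control. The next was at 8.42, 11.55 and 7.59 in the restriction group, against 7.76, 7.77 and 8.13 in the controls. A probe set shared by Bach2 and its antisense gene exceeded the highest control by only 0.026, in restriction replicate 1. None of these differences was tested.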

How the results depend on the processing

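Of 15 alternatives none called a member: limma called 0 in 510 member fits. Of the 35 members, 10 kept their sign in every alternative and 19 changed it without restriction replicate 2. Leaving out 1 array at a time gave 11 to 33 members above 0 (11 without restriction replicate 2), 0 to 6 past an unadjusted p of 0.05 (6 without restriction replicate 3), a median of -0.11 to 0.30 for naive and follicular genes and of 0.059 to 0.17 for plasma cell genes, and 24 to 439 called genes (439 without restriction replicate 2), against 43 with all arrays. The members that changed sign in some such fit ranged, as log2 differences, as follows: Cd79a -0.35 to 0.26, Cd79b -0.21 to 0.53, Blk -0.097 to 0.27, Bank1 -0.027 to 0.68, Cd22 -0.14 to 0.53, Siglecg -0.14 to 0.17, Btla -0.29 to 0.84, Cr2 -0.21 to 0.52, Fcer2a -0.0068 to 0.32, Fcmr -0.34 to 0.53, Fcrla -0.28 to 0.22, Ms4a1 -0.62 to 0.61, Cd37 -0.11 to 0.27, Cd180 -0.14 to 0.24, Tnfrsf13c -0.059 to 0.30, Cxcr5 -0.043 to 0.27, Ltb -0.11 to 0.75, Pax5 -0.17 to 0.047, Spib -0.091 to 0.39, Pou2af1 -0.17 to 0.40, Tnfrsf13b -0.20 to 0.096, Jchain -0.48 to 1.57, Sdc1 -0.029 to 0.28, Tnfrsf17 -0.20 to 0.012. Genes called fell to 0 with a replicate block and to 0 without rows with extra digits. Members above 0 numbered 19 of 20 left by the filter on dim genes. Members past an unadjusted p of 0.05 numbered 0 with the mean of probe sets and 23 with restriction replicate 2 alone, where Siglecg was 0.17, Pax5 0.25, Tnfrsf13b 0.37, Sdc1 -0.24 and Irf4 0.22. The fit with restriction replicate 2 alone has 1 restriction array, the one where most members were highest, so its count does not test the diets. Quantile normalization turned Cd79a to -0.021 and Fcrla to -0.0038, and median centring turned Fcrla to -0.0018. Array weights left 21 of 35 members and 14 of 25 naive and follicular genes above 0; these weights, of 0.545, 0.745 and 2.365 for restriction replicates 1, 2 and 3, turned Cd79a to -0.14, Cd79b -0.030, Blk -0.12, Fcmr -0.026, Fcrla -0.038, Ms4a1 -0.24, Cd37 -0.16, Cd180 -0.14 and Tnfrsf13c -0.022. The cause of each change was not tested. Many members lie near the array median, where signal over background is unknown.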
